A study of Mus musculus with 6 samples.

Results

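The nuclear lamina and the LINC complex (linker of nucleoskeleton and cytoskeleton) are represented here by 10 genes, chosen by name and function, with earlier results of these data known. They are the lamins Lmna, Lmnb1 and Lmnb2, the SUN proteins Sun1 and Sun2, the nesprins Syne1, Syne2 and Syne3, and the inner nuclear membrane proteins Emd and Lbr. All 10 were found among the 35275 genes of the deposited table. Of these, 9 reached a mean of 1 FPKM (fragments scaled by gene length and by library depth) over the libraries and were tested with 11071 genes in all, and Syne3 did not reach that level.

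The lamina is a mesh of intermediate filaments under the inner nuclear membrane. Lmna encodes the A-type lamins, which contribute to the stiffness of the nucleus and increase in many differentiated cells, whereas Lmnb1 and Lmnb2 encode B-type lamins, which stay farnesylated and bound to the membrane. SUN proteins span the inner membrane, bind lamins on one side and, in the space between the membranes, hold the KASH tails of nesprins, which reach into the cytoplasm to actin, intermediate filaments and microtubule motors. In epidermis these proteins place the nucleus and couple it to the keratin and microtubule networks, which are rebuilt as keratinocytes leave the basal layer.

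The libraries hold messenger RNA of epidermal cells from the back skin of CD1 IGS mouse embryos taken at E16.5 (days of gestation), with 3 control and 3 K10-spastin libraries. In the K10-spastin group (K10rtTA;TREspastin) the keratin 10 promoter of suprabasal keratinocytes drives a doxycycline-dependent activator, which induces spastin, an enzyme that severs microtubules. The dams of both groups were described together, with K10-rtTA, TRE-H2B-GFP and TRE-Spastin alleles and doxycycline food from E14.5, and cells with H2B-GFP were sorted. The alleles carried by the control embryos and the number of embryos per library were not given in the sources used here. Effects of spastin and of the other alleles therefore cannot be told apart, and p-values measure only the spread between these samples, which may be technical.

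Low values gave depths of 16.0 to 22.5 M (mega) fragments per library. Spast, read as a check of the labels, was 21.2 to 24.0 FPKM in control libraries, and K10-spastin 1 to 3 had 1431, 639 and 213 FPKM. Keratins that define the labelled suprabasal layer were abundant in every library but lower in K10-spastin. Krt10 was 23698 to 32513 FPKM in control and 13075 to 17318 FPKM in K10-spastin, and it fell (log2 change -0.81, limma adjusted p = 0.0438), while Krt1 was 19313 to 28595 FPKM against 11406 to 17008 FPKM (limma adjusted p = 0.0838). K10-spastin 1 stood apart: it held the lowest of the 6 values in 50.4% of all genes tested, and its median-of-ratios scaling factor was 0.811 against 1.01 to 1.08 in the other libraries. That scaling moved the median log2 change of all genes tested from -0.09 to 0.04. Fibroblast markers were low but differed between groups: 5 of 8 reached 1 FPKM in a library, their summed level was 181 to 295 FPKM in control and 58.4 to 135 FPKM in K10-spastin, and most of that sum was Postn. Of 8 basal keratinocyte markers, 1 fell, the keratin Krt15, and none rose, beside 5.90% called lower and 5.14% called higher over all genes tested. At an unadjusted limma p under 0.05, 4 of the 8 were lower, beside 2065 of the 11071 genes tested. Of the 8, 6 had a negative change and 2 a positive one, with a median of -0.89. The positive ones were those of Krt14 and Itgb4 (0.07 and 0.38), while Krt5, the most abundant, had -0.78 (limma adjusted p = 0.202). The summed basal level overlapped between groups. Of 7 granular markers, 4 rose and none fell, with a median change of 1.96. The summed red cell markers reached 331 FPKM in control 3 and at most 17.4 FPKM in K10-spastin.

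The comparison of K10-spastin with control asks whether the transcripts of this nuclear coupling system differ where spastin is induced. Sun1 was lower in K10-spastin and was the only one of the 9 tested genes to pass the test (limma adjusted p under 0.05 over all genes tested). No member was called higher, while at an unadjusted limma p under 0.05 there were 1 higher, Lmna, and 2 lower, Sun1 and Syne1. At that unadjusted threshold 1421 of all 11071 genes tested were higher and 2065 lower. Over all genes tested, 5.90% were called lower, 5.14% higher and 11.0% in either direction, so 1 of 9 is near the background. The median log2 change of the 9 genes was -0.04, beside -0.09 over all genes tested. Changes are K10-spastin minus control on the log2(FPKM + 1) scale, where those of low genes are understated, and are given ± SE.

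**Figure D1:**
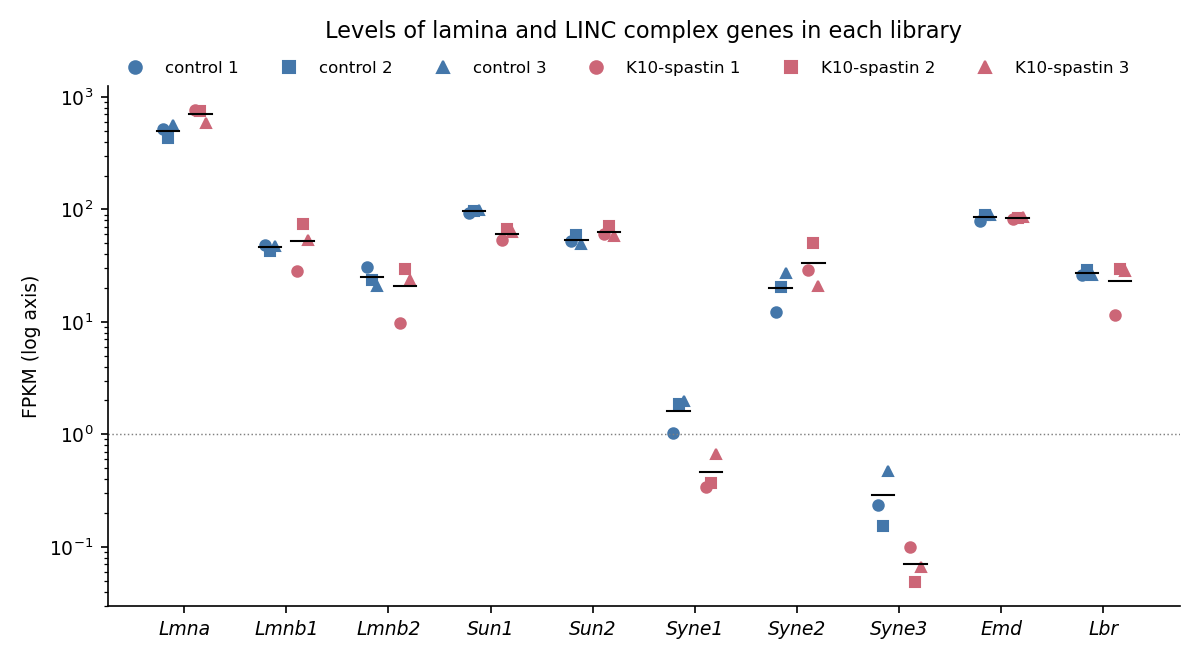
FPKM (log axis) of each of the 10 genes in the 3 control libraries (blue) and the 3 K10-spastin libraries (red), with black bars at the group means and a dotted line at 1 FPKM. Sun1 lies at 93.0 to 99.4 FPKM in control, against 53.5 to 66.4 FPKM in K10-spastin, and Lmnb1, Lmnb2, Lbr and Syne2 spread widely over the K10-spastin libraries.

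In the controls the genes spanned more than 3 orders of magnitude per unit of length. Lmna was the highest at 503 ± 65.5 FPKM (SD, n = 3), followed by Sun1, Emd, Sun2 and Lmnb1, and none of these neighbours overlapped in the control libraries. Lbr, Lmnb2 and Syne2 followed at 27.1, 25.0 and 20.1 FPKM, with overlapping values between neighbours. Syne1 at 1.62 ± 0.517 FPKM and Syne3 at 0.287 ± 0.164 FPKM (SD, n = 3) were far below. In K10-spastin Lmna and Emd were the 2 highest, and Sun2, Sun1, Lmnb1, Syne2, Lbr and Lmnb2 came next, each overlapping its neighbour. Sun1 thus stood above Emd and Sun2 in control and below Emd in K10-spastin, where it could not be separated from Sun2. Each gene has a single value in the table, so isoforms are summed, and for the very long Syne1 and Syne2 a short transcript and a full-length one cannot be told apart.

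The single call was in the SUN pair. Sun1, an inner membrane protein that binds lamin A and also sits near nuclear pores, stood at 93.0, 97.7 and 99.4 FPKM in controls 1 to 3, against 53.5, 66.4 and 63.2 FPKM for K10-spastin 1 to 3. Every control library was above every K10-spastin library, a separation found in 40.4% of all genes tested. It had a log2 change of -0.66 ± 0.13, with a 95% interval of -0.96 to -0.36 (limma adjusted p = 0.0235). The call was lost without control 1, 2 or 3 (limma adjusted p = 0.0624, 0.10 and 0.111), where the change stayed between -0.69 and -0.64. It was kept without K10-spastin 1, the library that stood apart (change -0.57, limma adjusted p = 0.0204), and after median-of-ratios scaling (-0.51, limma adjusted p = 0.0260).

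Sun2, the other SUN protein of most somatic cells, stood at 52.3, 58.7 and 49.1 FPKM in the controls, against 60.9, 72.0 and 58.0 FPKM in K10-spastin. The groups overlapped by a small margin, since control 2 was above K10-spastin 3. This was a log2 change of 0.25 ± 0.14, with a 95% interval of -0.08 to 0.58 (limma adjusted p = 0.270), so a rise of up to about that upper bound and no change both remain within the interval. After median-of-ratios scaling the groups did not overlap, at 47.0 to 56.3 FPKM in control and 57.3 to 75.1 FPKM in K10-spastin. The change was then 0.39 and still not called (limma adjusted p = 0.101). The ratio of Sun1 to Sun2 within a library does not depend on scaling between libraries, and it was computed after the values of both genes had been seen. It was 1.78, 1.66 and 2.02 in the controls and 0.880, 0.923 and 1.09 in K10-spastin. The groups did not overlap, and an exact two-sided permutation test of 3 against 3 could not give a p below 0.1. The summed SUN level was 145 to 156 FPKM in control and 114 to 138 FPKM in K10-spastin.

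**Figure D2:**
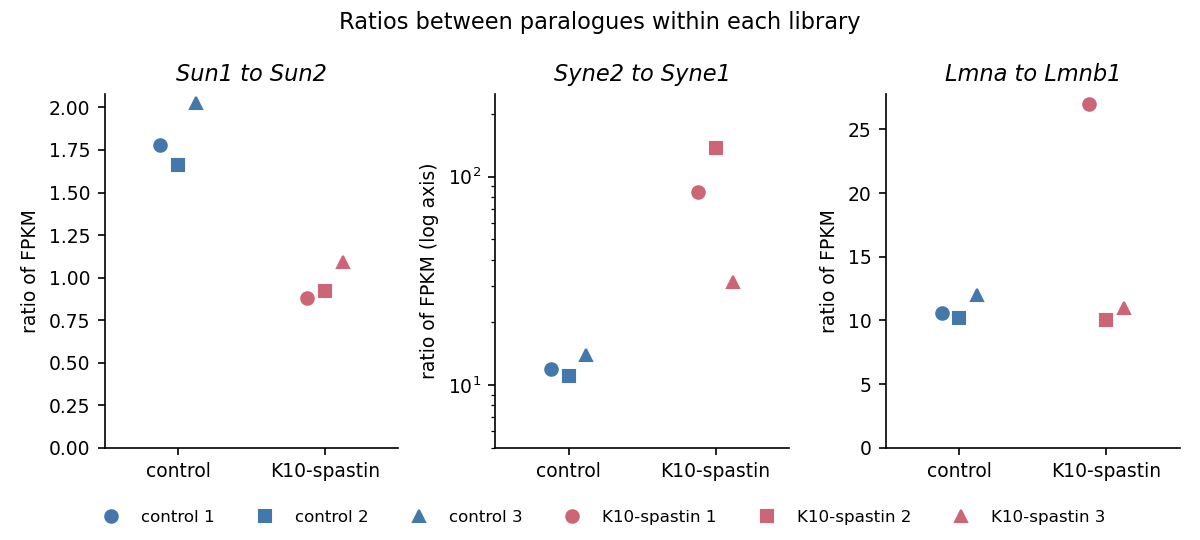
Ratios of FPKM between paralogues within each library, with the 3 controls in blue and the 3 K10-spastin libraries in red (the axis of the middle panel is logarithmic). Sun1 to Sun2 is 1.66 to 2.02 in control and 0.880 to 1.09 in K10-spastin, Syne2 to Syne1 is 11.1 to 13.9 against 31.1 to 136, and Lmna to Lmnb1 stands apart in K10-spastin 1 at 27.0.

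Beside the lower Sun1, some markers of other layers and cells differed between the groups, while others did not. The granular genes that rose were Rptn, Tgm1, Ivl and Cdsn, with Tgm1 at 53.6 to 80.5 FPKM in control and 183 to 403 FPKM in K10-spastin, although the summed granular level, mostly Lor, overlapped. Summed spinous markers, mostly Krt1 and Krt10, were 51741 to 68029 FPKM in control and 31317 to 46302 FPKM in K10-spastin. Of the 8 spinous genes, however, 4 had a positive and 4 a negative change. Their median was -0.10, beside -0.09 over all genes tested. Krt17, listed as a hair follicle marker, rose from 123 to 223 FPKM in control to 1651 to 10480 FPKM in K10-spastin. Lhx2, from the same list, fell from 1.35 to 6.74 FPKM to 0.0498 to 0.309 FPKM (log2 change -1.74, limma adjusted p = 0.045). The third tested gene of that list, Sox9, had a change of 1.55 and was not called. The untested hair follicle genes had lower means in K10-spastin, so the list did not move in 1 direction. In the basal list Krt15 went from 1237 to 2095 FPKM in the controls to 70.0 to 449 FPKM in K10-spastin, and the fibroblast gene Dcn from 4.33 to 14.8 FPKM to 0.439 to 2.31 FPKM. Within the controls, Sun1 was 93.0 FPKM in control 1, where Col1a1 was 0.724 FPKM and the red cell genes were lowest, and 99.4 FPKM in control 3, where Col1a1 was 13.3 FPKM. The part of these layers and cells in the lower Sun1 was not tested. In bulk samples such as these, fewer cells of a type and less RNA per cell cannot be told apart. By the likeness of their pattern, the 3 tested genes closest to Sun1 across the 6 libraries were Usp49, a deubiquitinase, Sox6, a transcription factor, and Ttc28 (Pearson r of log2 values 0.999 for each). The 6 libraries fall into 2 groups, so any gene with a similar group difference scores high by this measure. Usp49, the closest, stood at 1.73 to 1.89 FPKM in control, against 0.817 to 1.14 FPKM in K10-spastin. It was not called (log2 change -0.49, limma adjusted p = 0.118). Sox6 stood at 5.04 to 5.94 FPKM in control, against 0.604 to 1.58 FPKM in K10-spastin. Ttc28 stood at 6.55 to 8.40 FPKM in control, against 0.339 to 1.35 FPKM in K10-spastin.

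The sequences just before the starts of Sun1 and Sun2 are shown because Sun1 was the gene that passed the test and Sun2 is its paralogue. Each is 250 bases upstream of the first RefSeq start (GRCm38.p6, 5′ to 3′ on the gene's strand), with CCAAT and GGGCGG on either strand in capitals. Sun1 is at chr5:139200387-139200636 on the plus strand, with no exon annotated in the window. Sun2 is at chr15:79742537-79742786 on the minus strand, and an exon of the non-coding gene Gm16576 on the other strand overlaps it.
Sun1: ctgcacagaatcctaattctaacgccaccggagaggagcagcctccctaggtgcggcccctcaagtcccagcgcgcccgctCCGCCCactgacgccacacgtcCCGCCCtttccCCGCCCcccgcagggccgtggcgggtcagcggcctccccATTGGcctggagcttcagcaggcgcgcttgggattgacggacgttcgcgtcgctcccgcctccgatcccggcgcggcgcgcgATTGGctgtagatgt
Sun2: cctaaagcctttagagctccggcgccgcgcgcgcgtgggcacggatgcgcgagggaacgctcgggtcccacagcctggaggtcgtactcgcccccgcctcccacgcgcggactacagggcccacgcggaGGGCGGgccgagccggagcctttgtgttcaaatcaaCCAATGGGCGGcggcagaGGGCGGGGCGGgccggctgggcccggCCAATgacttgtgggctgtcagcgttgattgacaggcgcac
Both windows had 2 matches to CCAAT, a motif found in 33.8% of 32851 upstream windows of the same length. GGGCGG, found in 32.7% of windows, had 3 matches at Sun1 and 4 at Sun2, 2 of which share 1 base. Of 5 other motifs searched on both strands, TTTGAA had 1 match at Sun2 and none at Sun1 (16% of windows), and CACGTG, TGACGTCA, TTTCCCGC and TTTGGCGC had none in either. The GC content was 70.0% and 70.8%. Sun1 has a second start in the table, whose window had 1 match to CCAAT and none to GGGCGG. The data do not say which start was used.

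Among the lamins, Lmna was higher in every K10-spastin library than in every control but did not pass the test. Groups were separated in this way, in either direction, in 40.4% of all genes tested. Controls 1 to 3 had 514, 433 and 563 FPKM, against 770, 746 and 587 FPKM for K10-spastin 1 to 3. Its log2 change was 0.47 ± 0.16, with a 95% interval of 0.10 to 0.85 (limma adjusted p = 0.0924). Control 3 and K10-spastin 3 were close, and over 17 other settings the change was 0.36 to 0.62 and never passed. Lmna held 86.6% to 89.3% of the summed lamin FPKM in control and 87.8% to 95.3% in K10-spastin.

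The B-type lamins and Lbr varied widely within the K10-spastin group. Lmnb1 stood at 48.7, 42.5 and 47.0 FPKM in the controls, against 28.5, 74.1 and 53.5 FPKM in K10-spastin. K10-spastin 1 was thus below all controls and the other two above them. The log2 change was 0.07 ± 0.32 (95% interval -0.67 to 0.82, limma adjusted p = 0.897). Lmnb2 stood at 30.6, 23.7 and 20.8 FPKM in the controls, against 9.70, 29.5 and 23.7 FPKM in K10-spastin. Its log2 change was -0.36 ± 0.38 (95% interval -1.26 to 0.54, limma adjusted p = 0.563). Only K10-spastin 1 lay outside the range of the controls. Lbr, the lamin B receptor, which tethers heterochromatin and also has sterol reductase activity, stood at 26.3, 28.7 and 26.2 FPKM in the controls, against 11.5, 29.4 and 28.2 FPKM in K10-spastin. Its log2 change was -0.33 ± 0.33 (95% interval -1.11 to 0.46, limma adjusted p = 0.541). Without K10-spastin 1 the changes were 0.45 for Lmnb1, 0.10 for Lmnb2 and 0.09 for Lbr, none of them called.

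K10-spastin 1 was the lowest of the 6 libraries for 5 of the 10 genes, namely Lmnb1, Lmnb2, Sun1, Syne1 and Lbr, which is the share found over all genes tested (50.4%). After median-of-ratios scaling it was still the lowest for Lmnb1 at 35.2 FPKM, Lmnb2 at 12.0 FPKM and Lbr at 14.2 FPKM, and no longer for Sun1 and Syne1. Beside 3 of the 10 genes, 27.3% of all genes tested were lowest there after scaling. Cell cycle genes differed between the same libraries. Of 16, 15 were lowest in K10-spastin 1 as deposited, and 6 after scaling, and 15 were highest in K10-spastin 2 on either scale. Over all genes tested, 24.5% were highest in K10-spastin 2 as deposited, and 1773 of 11071 after scaling. Top2a, a topoisomerase of dividing cells, stood at 41.8 to 52.9 FPKM in control, against 21.4, 88.6 and 70.8 FPKM for K10-spastin 1 to 3. Lmnb1 had the same order of the 3 K10-spastin libraries. No cell cycle gene passed the test (limma, and none at an unadjusted p under 0.05), beside 11.0% called in either direction over all genes tested. The part of cycling cells in the spread of Lmnb1, Lmnb2 and Lbr was not tested.

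**Figure D3:**
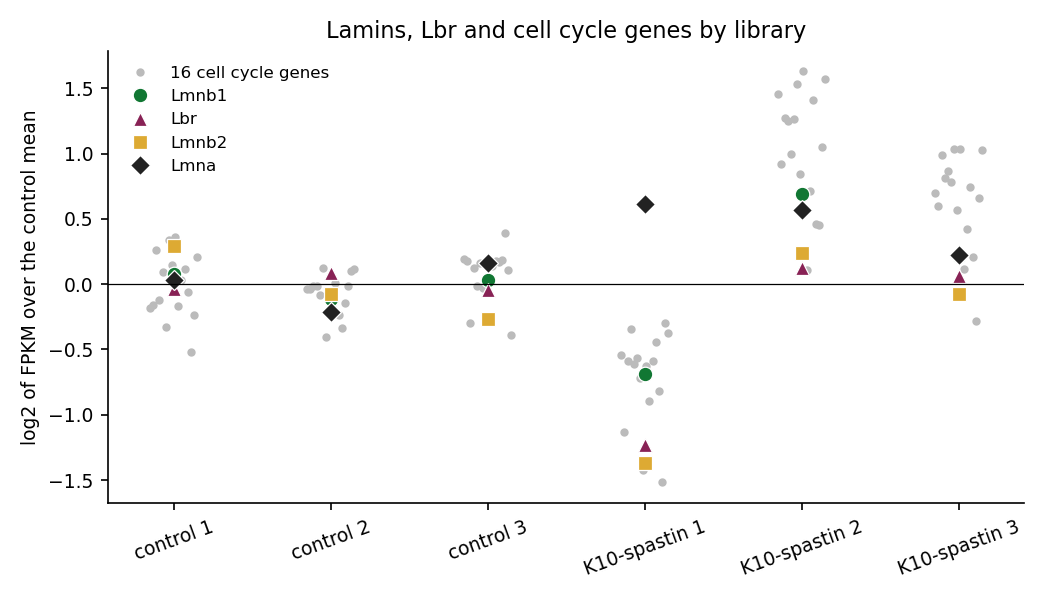
Log2 of FPKM over the mean of the 3 controls, by library, for Lmna, Lmnb1, Lmnb2 and Lbr (coloured symbols) and for 16 cell cycle genes (grey points). In K10-spastin 1 Lmnb1, Lmnb2 and Lbr lie among the lowered cell cycle genes while Lmna is raised. In K10-spastin 2, where 15 of the 16 cell cycle genes are highest, Lmnb1 is also highest.

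The ratio of Lmna to Lmnb1 followed from this. It was 10.2 to 12.0 in the controls, 10.1 and 11.0 in K10-spastin 2 and 3, and 27.0 in K10-spastin 1. A difference in the balance of A-type and B-type lamins was therefore seen in 1 of the 3 K10-spastin libraries. For Lmna to Lmnb2 the ratio was 16.8 to 27.1 in control, 25.3 and 24.7 in K10-spastin 2 and 3, and 79.4 in K10-spastin 1.

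Among the nesprins, Syne2, a giant nesprin with an actin-binding amino terminus, was by far the most abundant. It stood at 12.3, 20.5 and 27.4 FPKM in the controls, against 28.7, 50.8 and 21.0 FPKM in K10-spastin. The groups overlapped, and the spread was wide in both. It had a log2 change of 0.69 ± 0.38 (95% interval -0.20 to 1.57, limma adjusted p = 0.258).

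Syne1, its paralogue, known for anchoring nuclei in muscle, stood at 1.02, 1.85 and 1.98 FPKM in the controls, against 0.342, 0.372 and 0.674 FPKM in K10-spastin. The groups did not overlap, as in 40.4% of all genes tested, with the lowest control above the highest K10-spastin library. This was a log2 change of -0.83 ± 0.23, with a 95% interval of -1.37 to -0.28, and it missed the threshold (limma adjusted p = 0.0607). With a pseudocount of 0.1 the change was -1.61 (limma adjusted p = 0.0648). It was called without a trend (limma adjusted p = 0.0459) and with array weights (0.0152), and in none of the 14 other settings in which it was tested. By exon lengths of GENCODE M21, though the table may rest on another annotation, these levels correspond to about 932 to 1322 fragments in control and 240 to 473 in K10-spastin. Muscle markers were near 0, with 1 of 8 reaching 1 FPKM in a library and Tnnc2 listed at 0 throughout, and their summed level was 1.65 to 2.91 FPKM in control and 1.55 to 2.35 FPKM in K10-spastin. The fibroblast gene Dcn was 4.33, 6.25 and 14.8 FPKM in controls 1 to 3, against 0.439, 2.31 and 1.60 FPKM for K10-spastin 1 to 3. The part of fibroblasts or other cells in the lower Syne1 was not tested.

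Syne3, whose product binds plectin and through it intermediate filaments, stood at 0.237, 0.154 and 0.471 FPKM in the controls, against 0.0986, 0.0486 and 0.0657 FPKM in K10-spastin. These levels correspond to about 14 to 43 fragments in control and 5 to 10 in K10-spastin by the same lengths. It was below the level for testing. With no filter, over 20977 genes, the log2 change was -0.26 ± 0.09 (limma adjusted p = 0.161). Syne2 made up 90.7% to 91.8% of the summed FPKM of the 3 nesprins in control and 96.6% to 99.2% in K10-spastin, without overlap. The ratio of Syne2 to Syne1 was 12.0, 11.1 and 13.9 in controls 1 to 3 and 83.9, 136 and 31.1 in K10-spastin 1 to 3. These ratios and shares were chosen after the values had been seen.

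The 3 tested genes with the pattern closest to Syne1 were Atf3 (Pearson r = 0.997 over the 6 libraries), a stress-induced transcription factor, Zfp36 (r = 0.996), which shortens the life of inflammatory messenger RNAs, and Lrig3 (r = 0.996), a membrane protein. Atf3 and Zfp36 are among the genes that respond at once to stimulation. Atf3 stood at 446, 1274 and 1646 FPKM in controls 1 to 3, against 145, 162 and 306 FPKM for K10-spastin 1 to 3. Syne1 had the same order of libraries within each group, with control 1 the lowest control and K10-spastin 3 the highest of its group. The 3 genes were picked for their correlation with Syne1 over the same 6 libraries, so a similar order follows from the choice. Lrig3 stood at 19.0, 27.7 and 26.9 FPKM in controls 1 to 3, with control 2 and not control 3 the highest. In K10-spastin 1 to 3 it had 13.3, 13.7 and 15.7 FPKM.

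Emd, which encodes emerin, a LEM-domain protein that binds lamins and the chromatin factor Banf1, had the smallest change of the 9 tested genes. It stood at 78.8, 89.8 and 88.8 FPKM in the controls, against 81.9, 83.5 and 85.4 FPKM in K10-spastin. All K10-spastin values lay within the range of the controls. Its log2 change was -0.04 ± 0.11, with a 95% interval of -0.30 to 0.23 (limma adjusted p = 0.864), so changes beyond those bounds in either direction lie outside the interval. Of its exon bases, 13.6% are shared with another annotated gene, and of those of Lbr 10.7%, so part of the reads may be split.

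**Figure D4:**
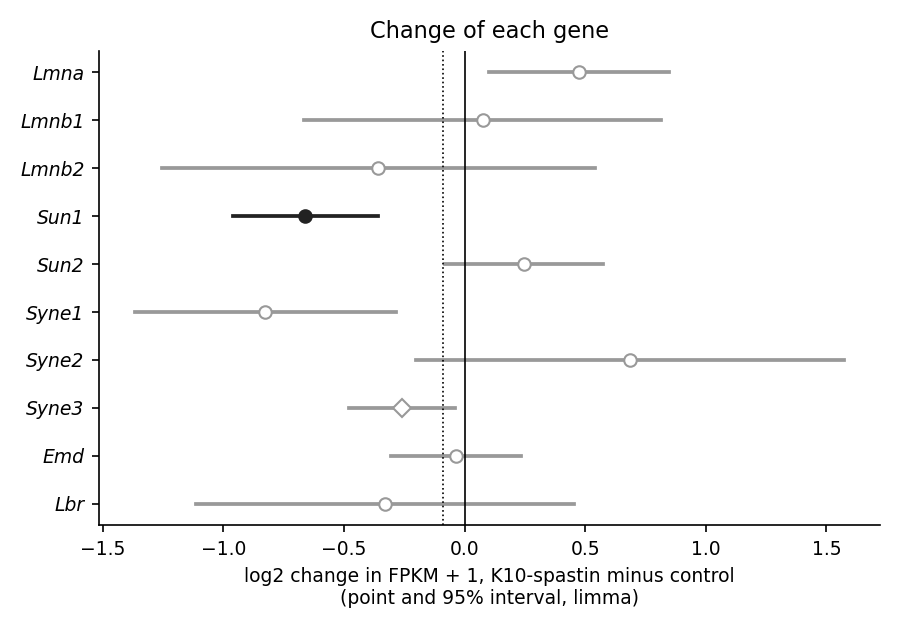
Log2 change of FPKM + 1, K10-spastin minus control, with the 95% interval from limma for each gene. The filled point, Sun1 at -0.66, is the call, the diamond for Syne3 comes from the fit with no filter, and the dotted line is the median of all genes tested at -0.09.

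Other nuclear envelope genes were described from lists fixed with earlier results of these data known. Of 20 tested genes of the lamina, nuclear membranes and bound chromatin, none passed the test by limma (1 higher and none lower at an unadjusted p under 0.05). Over all 11071 genes tested, 11.0% were called in either direction, and 1421 were higher and 2065 lower at the unadjusted threshold. The median change of the 20 genes was -0.09, equal to that of all genes tested. Tmem43, a membrane protein that binds emerin and lamins, had the smallest p, with 104 to 125 FPKM in control and 150 to 264 FPKM in K10-spastin (log2 change 0.75, limma adjusted p = 0.0618). Banf1, which links emerin to chromatin, had a change of 0.38 (limma adjusted p = 0.161). The further SUN genes Sun3 and Sun5 were below 0.5 FPKM in every library, with Sun5 listed at 0. Syne4, the kinesin-binding nesprin of epithelia, was 0.976 to 2.02 FPKM in control and 0.339 to 1.73 FPKM in K10-spastin (limma adjusted p = 0.466). The list was not complete. Nemp2, a paralogue of the listed Nemp1, was not in it and was called lower (log2 change -0.96, limma adjusted p = 0.0234). Of 6 genes of lamin processing none passed, beside the same 11.0% (limma, 1 higher and 1 lower at an unadjusted p under 0.05). Narf, which binds prelamin A, had the smallest p, averaging 44.0 ± 5.45 FPKM in the controls, against 25.4 ± 10.1 FPKM for K10-spastin (SD, n = 3 each). Its groups did not overlap, as in 40.4% of all genes tested (log2 change -0.85, limma adjusted p = 0.102). Rce1, a protease that trims farnesylated proteins, was 17.6 to 20.1 FPKM in control and 22.8 to 28.0 FPKM in K10-spastin (log2 change 0.37, limma adjusted p = 0.129). The lamin-cleaving protease Zmpste24 had a change of 0.14 and the farnesyltransferase subunit Fnta of 0.02.

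Among 16 tested cytoplasmic partners of nesprins, 2 fell and none rose by limma (2 higher and 2 lower at an unadjusted p under 0.05), with a median of -0.15. This is near the 11.0% called in either direction over all genes tested. Klc4, a kinesin light chain, stood at 3.20 to 3.39 FPKM in control, against 0.695 to 1.36 FPKM in K10-spastin (log2 change -1.11 ± 0.20, limma adjusted p = 0.0189). Dst, a plakin that links keratin filaments to hemidesmosomes and has microtubule-binding isoforms, stood at 12.2 to 19.5 FPKM in control, against 4.94 to 7.67 FPKM in K10-spastin (log2 change -1.19 ± 0.24, limma adjusted p = 0.0256). Dst is a gene of basal cells, and in the basal list Krt15 fell, Krt14 had a change of 0.07 and the median was -0.89. The part of basal cells in the fall of Dst was not tested. The most abundant partners, Actn4 and Dync1h1, had changes of 0.15 and -0.15 (limma adjusted p = 0.468 and 0.704). Plec, the plectin partner of Syne3, had a change of -0.30 (limma adjusted p = 0.369).

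Of 27 tested nuclear pore genes, 2 rose and none fell (limma, 4 higher and none lower at an unadjusted p under 0.05), with a median of 0.12. This is near the 5.14% called higher over all genes tested. Nup50, a nucleoporin of the nuclear basket, went from 10.7 to 13.2 FPKM in control to 18.1 to 21.0 FPKM in K10-spastin (log2 change 0.64 ± 0.15, limma adjusted p = 0.0421). Sec13, shared by the pore and the COPII coat, had a log2 change of 0.43 ± 0.11 (limma adjusted p = 0.0485), and Tpr, the filament of the basket, one of 0.60 (limma adjusted p = 0.0680). Of 11 tested genes of the ESCRT-III machinery, which reseals the nuclear envelope after division or rupture and recruits spastin, 2 rose and none fell, beside the same 5.14%, with a median of 0.04. One was the induced Spast and the other Chmp4c, a subunit of the abscission checkpoint, which stood at 1.46, 2.66 and 2.15 FPKM in the controls, against 16.2, 10.9 and 19.2 FPKM in K10-spastin (log2 change 2.40 ± 0.26, limma adjusted p = 0.00530). Its abundant paralogue Chmp4b was 217 to 236 FPKM in control and 188 to 202 FPKM in K10-spastin (log2 change -0.22, limma adjusted p = 0.209).

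**Figure D5:**
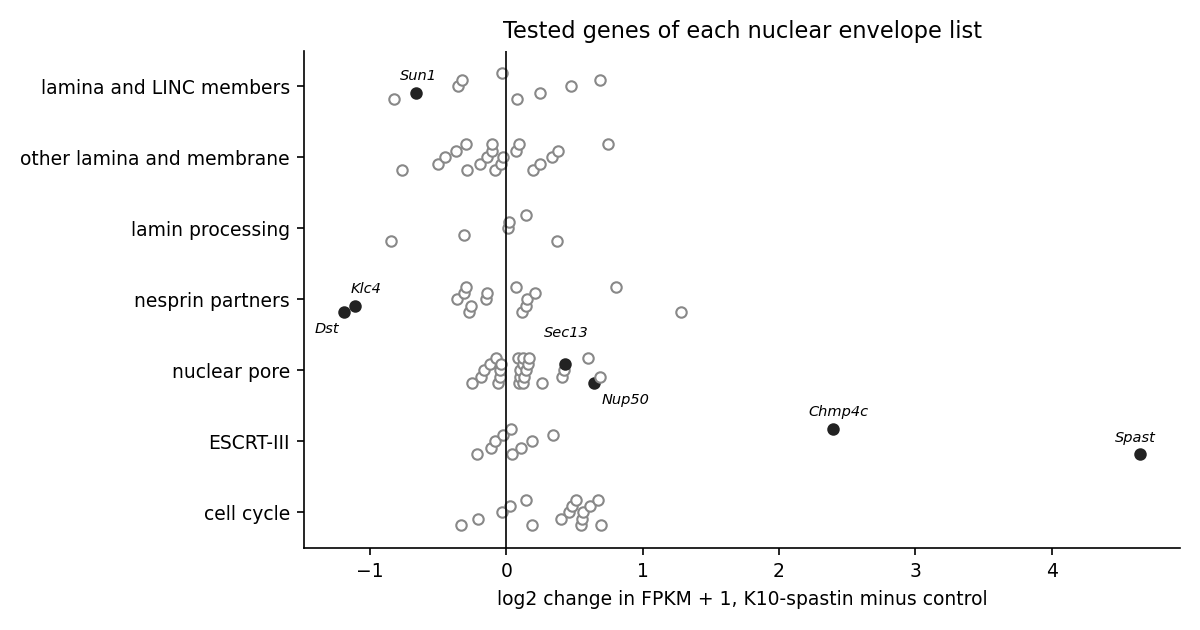
Log2 change of FPKM + 1, K10-spastin minus control, for each tested gene of the lamina and LINC members and of the lists of related genes (1 point per gene, filled where the limma adjusted p is under 0.05). Sun1 is the filled point among the members, and Chmp4c and the induced Spast are the filled points of the ESCRT-III list.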

How the data were processed

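Messenger RNA of sorted cells was measured in 3 control and 3 K10-spastin libraries. The table deposited by the authors holds FPKM, 1 column per library. CASAVA and TopHat2 are named without versions in the submitters' processing notes, with the counter, build, annotation and strand setting not given in the sources used here. Symbols were matched for 34490 of 35275 identifiers.

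Genes averaging 1 FPKM or more were compared on log2(FPKM + 1) with limma 3.58.1 in R 4.3.3 (eBayes with a trend, two-sided, Benjamini-Hochberg adjustment over 11071 genes, called under 0.05). No covariate was used. The fit was tested on simulated data. Depth was read from the commonest step of low values in genes with 1 transcript in GENCODE M21, where 90.6% to 91.6% of values up to 20 fragments were whole within 0.05. It describes precision only. Promoter sequences came from a RefSeq table.

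The members and lists were chosen with earlier results of these data known. The named genes are the members, Spast and Krt10, up to 4 genes of a list (the 2 smallest p, the 2 highest means) and the 3 patterns nearest to the 2 members with the smallest p. Plec, Zmpste24, Syne4, Sun3 and Sun5 were named for their roles, and Itgb4, Ivl and Cdsn to fill out their lists, after their values were seen. Nemp2, outside the lists, was also named after its value was seen. Alternatives were a pseudocount of 0.1 or 0.5, a filter at 5 FPKM or none, 2 scalings, 3 variance settings, the replicate block, and the removal of each library in turn. The joint removal of control 1 and K10-spastin 1 was chosen after seeing the data.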

Additional observations from a re-analysis of the deposited data

How the results depend on the processing

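Sun1 was lower under each of 17 other settings (log2 change -0.74 to -0.51) and called in 13. The members called lower numbered 2 with no trend and with array weights, where Syne1 was added, and 0 with the replicate block, where Sun1 had a limma adjusted p of 0.0813. With 1 library left out the number ranged from 0 to 1. No member was called higher in any of the 17 settings. Changes that turned sign, none of them called, were those of Emd under median-of-ratios scaling (0.11), of Lmnb2 with array weights (0.034) and without K10-spastin 1 (0.10), of Lbr without K10-spastin 1 (0.089), of Lmnb1 without K10-spastin 2 (-0.23), and of Lmnb2 and Lbr without control 1 and K10-spastin 1 together (0.24 and 0.070). With libraries left out, the changes ranged from -0.23 to 0.49 for Lmnb1, from -0.66 to 0.24 for Lmnb2 and from -0.55 to 0.089 for Lbr. The cause was not tested beyond the libraries left out. Over all genes, calls numbered 319 higher and 348 lower with no filter, 1535 and 1771 with array weights, 274 and 218 with the replicate block, and 113 and 32 without control 3. Replicate numbers did not pair the samples: deviations of same-numbered libraries had correlations of -0.13, -0.38 and -0.05, and 0 of 6 libraries correlated best with its own number. Syne1 and Syne3 are limited by their low level.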
